A study of Mus musculus with 12 samples.

Results

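Dcn, Mgp, Lum, Col1a1, Col1a2 and Col3a1, genes of the fibrous matrix around brain blood vessels, were followed through 4 laser-captured layers of the mouse hippocampus. They were taken by symbol among array features with exactly 1 gene symbol in the platform annotation, with the feature of each symbol selected on its mean over the 12 arrays, the highest being used. They make up 6 of the 30142 genes measured. Each of the 6 had 1 such feature. The mean over the arrays was 8.79 for Mgp, 7.73 for Col1a1, 6.94 for Col1a2, 6.76 for Col3a1, 6.15 for Dcn and 5.14 for Lum, in log2 expression units. These means describe the features and do not rank the genes, because probes of different features bind with different strength.

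The tissue was taken from 3 male mice of the Amigo2-EGFP line, whose strain is given as Amigo2-GFP C57BL/6J. They were 6 to 8 weeks of age and of separate litters. Their RNA was hybridised to Affymetrix arrays that cover the whole transcriptome. The groups were the CA2 dendritic layer, the CA2 cell body layer, the CA1 dendritic layer and the CA1 cell body layer, with 3 arrays each. All mice carried the reporter, which marks CA2 through the Amigo2 gene, and none was treated. The cell body layer is the stratum pyramidale, where the somata of pyramidal neurons are packed, and the dendritic layer is the stratum radiatum, which also holds glia, interneurons and vessels. Each piece was pooled from about 20 capture caps with 5 sections of 8 µm on a cap. All 6 CA2 arrays carry one run number in the labels and all 6 CA1 arrays another, so that a regional difference cannot be told apart from a difference between runs. Both comparisons of layers lay within a run.

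Perivascular fibroblasts lie in the space around larger vessels of the brain and in the meninges, and they secrete collagen and the proteoglycans that bind it. Collagen I is a triple helix of chains encoded by Col1a1 and Col1a2, and collagen III, encoded by Col3a1, joins it in fibrils. Decorin (Dcn) and lumican (Lum) are small leucine-rich proteoglycans that coat such fibrils and limit their thickness. Matrix Gla protein (Mgp) is a small secreted protein that needs vitamin K-dependent carboxylation, keeps vessel walls from calcifying and binds bone morphogenetic proteins. The 6 genes are not exclusive to fibroblasts. Mgp is also made by cells of arteries, and Dcn has been described in pyramidal neurons of ventral CA1.

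Marker genes went with the labels of region and of layer. Gfap, an astrocyte gene, read 11.23 ± 0.23 in the CA2 dendritic and 7.98 ± 0.19 in the CA2 cell body layer, and 10.94 ± 0.10 in the CA1 dendritic and 7.65 ± 0.12 in the CA1 cell body layer. Neurod6, a gene of pyramidal neurons, read 8.63 ± 0.26 in the CA2 dendritic and 11.81 ± 0.03 in the CA2 cell body layer, and 9.73 ± 0.16 in the CA1 dendritic and 12.30 ± 0.08 in the CA1 cell body layer. Amigo2 read 9.73 ± 0.18 in the CA2 cell body layer and 6.90 ± 0.10 in the CA1 cell body layer (SD, n = 3 arrays). Wfs1, a marker of CA1 neurons, read 8.70 ± 0.27 in the CA2 and 11.42 ± 0.09 in the CA1 cell body layer. Some arrays stood apart from their groups. A list of 15 measured oocyte transcripts averaged 7.24 to 7.36 on CA2 dendritic arrays 2 and 3 and CA2 cell body array 1, and 5.43 to 5.81 on the other 9 arrays. Fits called without the oocyte arrays leave out those high arrays and keep only CA2 dendritic array 1 in that group. A call lost in such a fit cannot be told apart from an effect of having fewer arrays. Ttr, the transthyretin of the choroid plexus, read 12.15 on CA2 dendritic array 2 and 11.88 on CA2 cell body array 3, and 7.10 to 10.17 on the other 10. In bulk tissue, fewer cells of a type and less RNA per cell cannot be told apart.

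The RefSeq promoter table used here (GRCm38.p6) held 2 of the 6 genes, Col1a2 and Col3a1. The 150 bases before each annotated start are shown for these 2 genes because the table held no other gene of the set. Capitals mark the motifs CCAAT or TATAAA, searched on both strands of the 250 bases before the start.
Col1a2, chr6:4505468-4505617, plus strand: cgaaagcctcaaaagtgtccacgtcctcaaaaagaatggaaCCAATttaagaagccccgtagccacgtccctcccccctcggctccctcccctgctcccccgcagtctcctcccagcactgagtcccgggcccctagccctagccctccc
Col3a1, chr1:45311388-45311537, plus strand: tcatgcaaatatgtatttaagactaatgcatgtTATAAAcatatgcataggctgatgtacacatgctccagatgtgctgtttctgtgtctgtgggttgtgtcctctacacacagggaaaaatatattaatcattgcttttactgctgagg
Col1a2 held 1 CCAAT, at positions -109 to -105 relative to the start, and Col3a1 held 1 TATAAA, at -117 to -112. Of all 32851 promoters in the table, 33.9% held CCAAT and 12.4% held TATAAA in the same window. A match is a description of these letters and not a site of binding.

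In the CA2 dendritic layer, 5 of the 6 genes were higher than in the CA2 cell body layer, where 16.2% of all genes passed the test in that direction. The secreted binding proteins differed far more than the collagen chains, each gene read by 1 feature. Mgp was 9.47-fold higher, Dcn 4.78-fold and Lum 2.96-fold, while Col1a2 was 1.18-fold and Col1a1 1.15-fold higher. Col3a1 did not pass the test. The median of the 6 differences was 0.91, against -0.03 over all 30142 genes. Passing the test means a limma p under 0.05 after Benjamini-Hochberg adjustment over all genes.

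**Figure D1:**
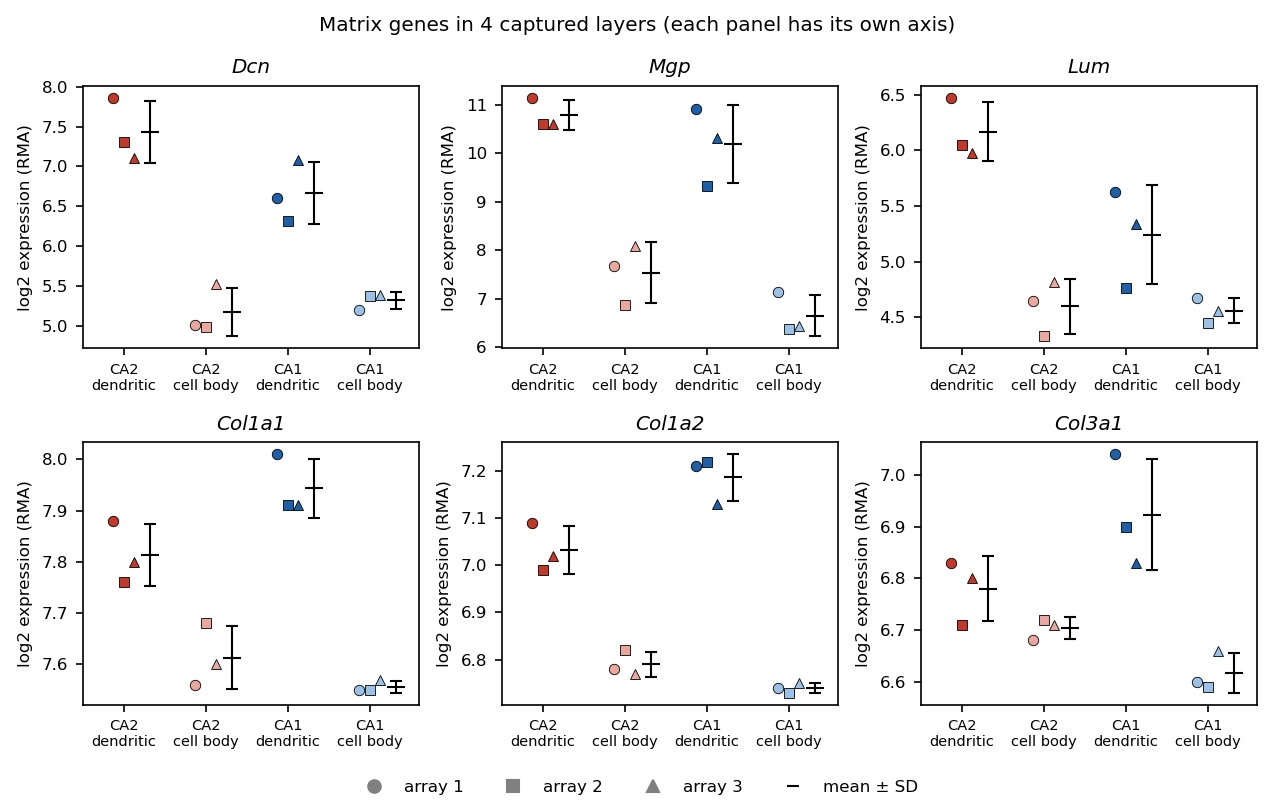
Log2 expression (vertical axis, its own range in each panel) of the 6 matrix genes on each array of the CA2 dendritic, CA2 cell body, CA1 dendritic and CA1 cell body layers, with the mean and SD of 3 arrays beside the points. The panels of Dcn, Mgp and Lum span several log2 units, whereas those of the 3 collagen genes span under 1. Dcn, Mgp and Lum averaged highest in the CA2 dendritic layer, and the collagens in the CA1 dendritic layer.

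Mgp read 11.14, 10.61 and 10.61 on the CA2 dendritic arrays, against 7.67, 6.87 and 8.09 on the CA2 cell body arrays. Its lowest dendritic array lay more than 2 log2 units above its highest cell body array. The difference was 3.24 (SE 0.25, limma adjusted p = 3.1e-06), in the 99.99th percentile of all genes.

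Dcn read 7.86, 7.31 and 7.11 on the CA2 dendritic arrays, against 5.01, 4.98 and 5.52 on the CA2 cell body arrays, and the groups did not overlap. It rose by 2.26 (SE 0.21, limma adjusted p = 1.5e-05). Lum, the other leucine-rich proteoglycan of the set, read 6.47, 6.05 and 5.98 in the CA2 dendritic layer, against 4.65, 4.33 and 4.82 in the CA2 cell body layer. It rose by 1.57 (SE 0.14, limma adjusted p = 1.1e-05). Within the dendritic group, array 1 was the highest for all 6 genes.

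The chains of collagen I moved little, as read by 1 feature each. Whether these features respond less than others was not tested. Col1a1 read 7.88, 7.76 and 7.80 in the CA2 dendritic layer, against 7.56, 7.68 and 7.60 in the CA2 cell body layer. Its difference was 0.20 (95% interval 0.05 to 0.35, limma adjusted p = 0.038). The call was lost in 16 of 25 alternative settings, among them quantile normalization (0.16, adjusted p = 0.0749). Another was the fit without the oocyte arrays, where 1 CA2 dendritic array was left and the difference was 0.20. Col1a2 read 7.09, 6.99 and 7.02 in the CA2 dendritic layer, against 6.78, 6.82 and 6.77 in the CA2 cell body layer, a difference of 0.24 (SE 0.06, limma adjusted p = 0.0091). Its call was lost without the 2 arrays high in choroid plexus markers (0.28, adjusted p = 0.0556), and also without replicate 1 or replicate 3 in all groups. The call was lost too without the oocyte arrays, where 1 CA2 dendritic array was left and the difference was 0.28. Col3a1 read 6.83, 6.71 and 6.80 in the CA2 dendritic layer, against 6.68, 6.72 and 6.71 in the CA2 cell body layer. These groups overlapped, and the difference of 0.08 had a 95% interval of -0.08 to 0.23 (limma adjusted p = 0.47). Of the 6 genes, 5 had groups that did not overlap with the dendritic layer higher, as did 21.7% of all genes.

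In CA1, all 6 genes were higher in the dendritic layer, where 28.3% of all genes passed in that direction. Mgp was 11.6-fold higher, Dcn 2.55-fold and Lum 1.61-fold. The collagens were 1.36-fold (Col1a2), 1.31-fold (Col1a1) and 1.24-fold (Col3a1) higher. The median of the 6 differences was 0.57, against 0.12 over all genes.

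Mgp read 10.91, 9.33 and 10.32 on the CA1 dendritic arrays, against 7.15, 6.38 and 6.44 on the CA1 cell body arrays. The spread within the dendritic group was wide (SD 0.80), yet its lowest array was more than 2 log2 units above the cell body group. The difference was 3.53 (SE 0.25, limma adjusted p = 1.9e-06).

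Dcn read 6.60, 6.32 and 7.08 in the CA1 dendritic layer, against 5.20, 5.37 and 5.38 in the CA1 cell body layer, a difference of 1.35 (SE 0.21, limma adjusted p = 5.0e-04). Lum read 5.63, 4.76 and 5.34 in the CA1 dendritic layer, against 4.67, 4.45 and 4.56 in the CA1 cell body layer. Its difference was 0.68 (SE 0.14, limma adjusted p = 0.0028), and dendritic array 2 lay only just above the cell body group. For Dcn, Mgp and Lum alike, array 2 was the lowest of the CA1 dendritic group.

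Col1a1 read 8.01, 7.91 and 7.91 in the CA1 dendritic layer, against 7.55, 7.55 and 7.57 in the CA1 cell body layer, and rose by 0.39 (SE 0.07, limma adjusted p = 8.1e-04). Col1a2 read 7.21, 7.22 and 7.13 in the CA1 dendritic layer, against 6.74, 6.73 and 6.75 in the CA1 cell body layer, and rose by 0.45 (SE 0.06, limma adjusted p = 1.6e-04). Both chains thus had tight, separate groups. Col3a1 read 7.04, 6.90 and 6.83 in the CA1 dendritic layer, against 6.60, 6.59 and 6.66 in the CA1 cell body layer, and rose by 0.31 (SE 0.07, limma adjusted p = 0.0048). That call was lost without replicate 1 (0.24, adjusted p = 0.0716) or replicate 2 (0.31, adjusted p = 0.0517). All 6 genes had groups that did not overlap, as did 34.7% of all genes with the dendritic layer higher.

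Features with no gene also shifted in CA1, by less than the collagens. The 23 background features of the array, probe sets sorted by base composition, were higher on the CA1 dendritic than on the CA1 cell body arrays by a median of 0.20 (range 0.09 to 0.29). In CA2 the same difference had a median of -0.04 (range -0.17 to 0.16). Between regions, CA2 minus CA1, the background features differed by a median of -0.15 (range -0.27 to 0.19) in the dendritic layers. In the cell body layers that median was 0.16 (range -0.11 to 0.38). The part of these shifts in the collagen results, between layers, between regions or in the difference between the layer differences, was not tested.

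**Figure D2:**
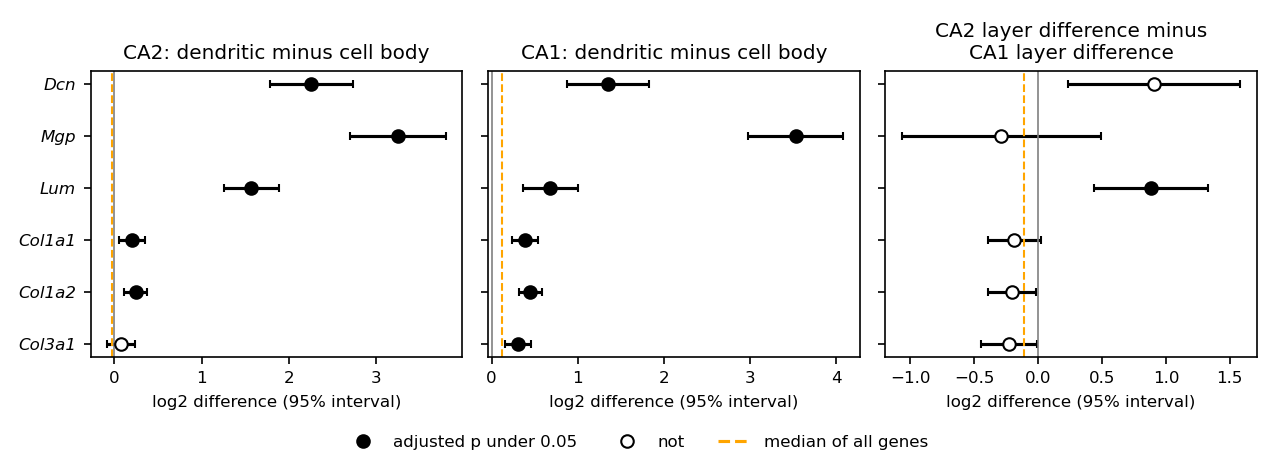
Log2 differences of the 6 genes between layers in CA2 and in CA1, and the CA2 layer difference minus the CA1 layer difference. Points are limma estimates with 95% intervals, filled where the adjusted p was under 0.05, and the dashed line is the median of all 30142 genes. Mgp, Dcn and Lum lie clear of that line in both layer comparisons, and the collagens lie nearer to it, at 0.08 to 0.24 in CA2 and 0.31 to 0.45 in CA1.

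The layer difference of Lum was larger in CA2 than in CA1. The interaction, the CA2 minus the CA1 layer difference, was 0.88 for Lum (SE 0.20, limma adjusted p = 0.021), where 4.81% of all genes passed in that direction and the median of all genes was -0.11. That call was not stable, and over the alternatives the value lay between 0.62 and 1.135. The call was lost without the replicate block (adjusted p = 0.0572), without the arrays high in choroid plexus markers (0.93, adjusted p = 0.0658) and without replicate 1 or 2. It was also lost without any one of CA2 dendritic arrays 1 or 2, CA2 cell body arrays 1 or 2 and CA1 cell body array 2, where the value lay between 0.78 and 0.87. Without the oocyte arrays, with 1 CA2 dendritic array left, the call was lost too, and the interaction of Lum was 0.84. Dcn differed by a like amount, 0.91 (95% interval 0.23 to 1.58), without passing (adjusted p = 0.079), and it passed without CA2 dendritic array 3 (1.20, adjusted p = 0.0142), CA1 dendritic array 3 (1.10, adjusted p = 0.0414) or replicate 3 (1.42, adjusted p = 0.0304). For Mgp the interaction was -0.29 (95% interval -1.06 to 0.49, adjusted p = 0.58). For Col1a1, Col1a2 and Col3a1 it was -0.19, -0.20 and -0.23, with adjusted p-values of 0.20, 0.14 and 0.14 in limma.

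The order of levels set Dcn, Mgp and Lum apart from the collagens, with region and run confounded. Dcn, Mgp and Lum averaged highest in the CA2 dendritic layer, followed by the CA1 dendritic layer and both cell body layers. For Dcn the means were 7.43 ± 0.39, 6.67 ± 0.38, 5.32 ± 0.10 in CA1 cell bodies and 5.17 ± 0.30 in CA2 cell bodies (SD, n = 3 arrays), and the cell body groups overlapped. For Mgp the CA2 and CA1 dendritic means of 10.79 ± 0.31 and 10.19 ± 0.80 overlapped, and so did the CA2 and CA1 cell body means of 7.54 ± 0.62 and 6.66 ± 0.43. For Lum the CA1 dendritic layer (5.24 ± 0.44) overlapped with the CA2 cell body layer (4.60 ± 0.25), which overlapped with the CA1 cell body layer (4.56 ± 0.11). Col1a1, Col1a2 and Col3a1 averaged highest in the CA1 dendritic layer, followed by the CA2 dendritic, CA2 cell body and CA1 cell body layers. In that order Col1a1 read 7.94 ± 0.06, 7.81 ± 0.06, 7.61 ± 0.06 and 7.56 ± 0.01, and the 2 cell body groups overlapped. Col1a2 read 7.19 ± 0.05, 7.03 ± 0.05, 6.79 ± 0.03 and 6.74 ± 0.01, with no overlap between neighbours. For Col3a1 each neighbouring pair overlapped except the 2 cell body groups, which were 6.70 ± 0.02 in CA2 and 6.62 ± 0.04 in CA1. The background features, which hold no gene, also averaged highest in the CA1 dendritic layer (4.65) and lowest in the CA1 cell body layer (4.47). They averaged 4.56 in the CA2 dendritic and 4.59 in the CA2 cell body layer. Their part in the order of the collagens was not tested.

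Between regions, Lum and Dcn were higher in the CA2 than in the CA1 dendritic layer, with region and run confounded. Of all genes, 11.6% passed in that direction. Lum differed by 0.92 (SE 0.14, limma adjusted p = 0.0014) and Dcn by 0.76 (SE 0.21, limma adjusted p = 0.025). The Dcn call was lost in 10 of 25 settings, among them without CA2 dendritic array 1 (0.49, adjusted p = 0.0886), CA2 dendritic array 2 (0.74, adjusted p = 0.0791), CA1 dendritic array 1 (0.70, adjusted p = 0.0815) or CA1 dendritic array 2 (0.63, adjusted p = 0.095). Mgp differed by 0.60 (adjusted p = 0.088) and the collagens by -0.13 to -0.15, with limma adjusted p-values of 0.076 to 0.15. The background features, which hold no gene, differed by a median of -0.15 in the same comparison. Col1a2 passed without the replicate block (-0.15, adjusted p = 0.0494), and Mgp passed when CA2 cell body array 3 was left out (0.60, adjusted p = 0.0424). The median of all genes was -0.11 in this comparison and -0.00 after each array was centred on its median, when the collagen differences shrank to between -0.02 and -0.05.

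In the cell body layers only Mgp passed between regions, at 0.89 (SE 0.25, limma adjusted p = 0.028), where 10.6% of all genes passed in that direction. Its groups overlapped, since CA2 cell body array 2 (6.87) lay below CA1 cell body array 1 (7.15). The call was lost without the replicate block (adjusted p = 0.128), without replicate 1 (1.07, adjusted p = 0.0596) or replicate 3 (0.51, adjusted p = 0.226), without CA2 cell body array 3 (0.57, adjusted p = 0.116), CA1 cell body array 1 (0.93, adjusted p = 0.071) or CA1 cell body array 3 (0.69, adjusted p = 0.134), and without the arrays high in choroid plexus markers (0.60, adjusted p = 0.0859). The other 5 genes differed by -0.15 to 0.09, with limma adjusted p-values of 0.45 to 0.89. For Lum the 95% interval of the difference was -0.27 to 0.35 and for Dcn -0.62 to 0.33.

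Within groups the secreted binding proteins varied more than the collagens, and partly together. On CA2 cell body array 3, Dcn, Mgp and Lum were each the highest of the group, and that array was also the group's highest for the choroid plexus list (mean 6.92, against 6.36 and 6.17). It was the highest too for the list of other brain fibroblast genes (6.59, against 6.49 and 6.50) and for the mural list (6.71, against 6.66 and 6.61). CA2 dendritic array 2, the highest of its group for the choroid plexus list (7.10, against 6.38 and 6.41), was the lowest of its group, or tied for it, for 4 of the 6 genes. CA1 dendritic array 2, lowest for Dcn, Mgp and Lum, was lowest for the other fibroblast (7.02, against 7.16 and 7.14), mural (7.50, against 7.86 and 7.70) and endothelial lists (8.47, against 8.62 and 8.56). That array was also lowest for the perivascular macrophage, astrocyte, microglia and interneuron lists, and for the pyramidal neuron list (8.93, against 9.07 and 8.97). It was not lowest for the oligodendrocyte list. Its low values were thus not particular to the lists of vessel cells and fibroblasts. The part of these cell types in the differences between arrays was not tested.

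**Figure D3:**
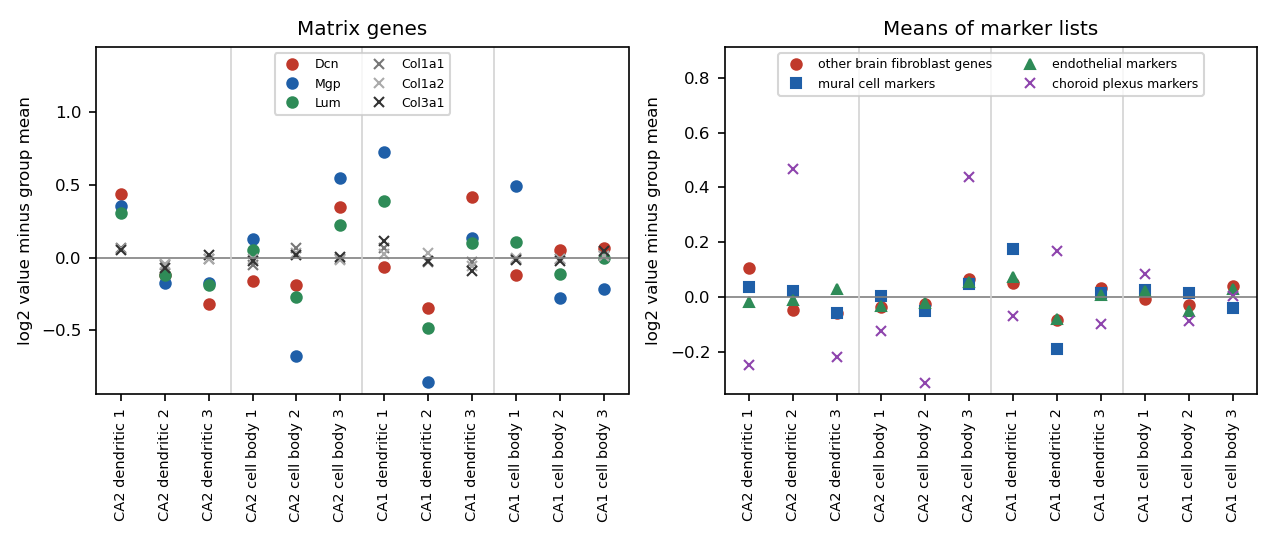
Log2 values minus the mean of the array's group (vertical axes) for the 6 genes on the left and for the means of 4 marker lists on the right, on each of the 12 arrays in the same order. Dcn, Mgp and Lum lie together above 0 on CA2 dendritic array 1 and CA2 cell body array 3 and below 0 on CA1 dendritic array 2, and the collagens stay near 0 throughout.

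Over the 12 arrays, the genes of each kind were more alike among themselves than across kinds. The arrays share layers and mice, so these correlations are descriptions. Pearson's r was 0.93 for Dcn and Mgp, 0.94 for Dcn and Lum and 0.91 for Mgp and Lum. Among the collagens r was 0.98 for Col1a1 and Col1a2, 0.94 for Col1a1 and Col3a1 and 0.91 for Col1a2 and Col3a1. Between a collagen and one of the other 3 genes it lay between 0.50 (Lum and Col3a1) and 0.86 (Mgp and Col1a1). Among 2899 other named genes whose group means spanned at least 1 log2 unit, the pattern of Dcn was most like those of Cp, the ferroxidase ceruloplasmin (r = 0.98), Gkn3, known from arterial endothelium of the mouse brain (0.98), and Arhgap29 (0.98). Mgp was most like Tm4sf1, a membrane protein of endothelial cells (0.99), the Ras activator Rasgrp3 (0.98) and the orphan receptor Gprc5b (0.98). Lum was most like Slc13a4, a sulfate transporter known from the leptomeninges (0.98), the mannose receptor Mrc1 of perivascular macrophages (0.97) and the histone gene H2bc21 (0.96). Col1a1 was most like Lfng, an enzyme that modifies Notch (0.98), the complement gene C1qc of microglia (0.98) and Syngr2 (0.98). Col1a2 was most like Pbxip1 (0.99), the receptor Notch1 (0.98) and the NMDA receptor subunit Grin2c (0.98). Col3a1 was most like the secreted Smoc1 (0.94), Syngr2 (0.93) and C1qc (0.93). The other collagens listed below spanned less than 1 log2 unit between group means, so none of them could be named here.

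Other small leucine-rich proteoglycans, the family of Dcn and Lum, differed widely, in CA1 between a fall of Epyc and rises above that of Dcn. Of 14 listed, 6 rose and 0 fell in the CA2 dendritic layer, and 10 rose and 1 fell in the CA1 dendritic layer, with medians of 0.15 and 0.45 against -0.03 and 0.12 over all genes. Of all genes, 16.2% rose and 17.8% fell in the CA2 and 28.3% rose and 18.5% fell in the CA1 dendritic layer, and the counts of this and the following lists stand against those shares. Without the oocyte arrays, with 1 CA2 dendritic array in the fit, fewer of all genes passed in the CA2 layers. A drop in the calls of a list in that fit is therefore not a result about the list. Asporin (Aspn) rose by 2.69 in CA2 and 2.01 in CA1, biglycan (Bgn) by 1.99 and 2.01, and Prelp, which anchors collagen to basement membranes, by 1.98 and 1.96. Ecm2 rose by 2.09 in CA2 and 1.43 in CA1, and Ogn (osteoglycin) by 1.49 and 2.06. Epyc (epiphycan) fell by 1.37 in CA1. The interaction passed for Ecm2 (0.67, adjusted p = 0.027) and Epyc (1.01, adjusted p = 0.015), and without the oocyte arrays neither passed (0.69, adjusted p = 0.19, and 0.83, adjusted p = 0.072).

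Other collagens of fibrils and their surfaces mostly showed small differences. Of 18, 3 rose and 1 fell in CA2 and 11 rose and 1 fell in CA1, with medians of 0.03 and 0.22 against -0.03 and 0.12 over all genes. The share that rose in CA2 was thus near that of all genes. The background features, which hold no gene, differed by a median of -0.04 in CA2 and 0.20 in CA1. The CA1 median of these collagens lay near that shift, whose part in their rises was not tested. The largest rise was that of Col12a1, a collagen on fibril surfaces, at 0.62 in CA2 and 0.57 in CA1. Col25a1, a neuronal transmembrane collagen, rose by 0.39 and 0.34 in CA2 and CA1, and Col11a1 fell by 0.35 and 0.28. Without the oocyte arrays fewer of the 18 passed in CA2, as did fewer of all genes, while 10 rose and 1 fell in CA1.

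Genes of the basement membrane, the sheet on which vessel cells rest, held larger changes. Of 20, 8 rose and 1 fell in CA2 and 16 rose and 2 fell in CA1, with medians of 0.14 and 0.33. Laminin Lama2 rose by 2.10 in CA2 and 2.01 in CA1, the laminin subunit Lamb2 by 0.91 and 0.98, and Lama4 by 0.92 and 0.83. Lamc1 rose by 1.08 in CA2 and 0.30 in CA1, the linker nidogen (Nid1) by 0.82 and 1.09, and Lamb1 fell by 0.63 and 0.43. Agrn rose by 0.25 in CA2 and fell by 0.21 in CA1. The interaction passed for Lamc1 (0.77, limma adjusted p = 6.9e-04) and Agrn (0.46, limma adjusted p = 0.020). Without the oocyte arrays, with 1 CA2 dendritic array left, these interactions were 0.76 and 0.27. The collagen IV genes Col4a1 (0.05 in CA2 and 0.17 in CA1) and Col4a2 (0.01 and 0.16), named after their values were seen, did not pass in either (adjusted p = 0.65 and 0.050 for Col4a1, 0.92 and 0.069 for Col4a2).

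Proteins that fold, process or crosslink collagen were mixed. Of 26 listed and 22 measured, 9 rose and 3 fell in CA2 and 11 rose and 3 fell in CA1. The collagen chaperone Serpinh1 rose by 2.34 in CA2 and 1.93 in CA1 and the collagen-binding Sparc by 1.91 and 2.08. The hydroxylase Plod1 rose by 0.57 and 0.94 in CA2 and CA1. Adamts3, a procollagen-cleaving protease, fell by 2.18 in CA2 and 1.13 in CA1, and P4ha1, a subunit of prolyl hydroxylase, fell by 0.61 in CA1. The interaction passed for Adamts3 (-1.06, limma adjusted p = 5.6e-04) and Plod1 (-0.37, limma adjusted p = 0.048). Without the oocyte arrays fewer of these passed in CA2, as did fewer of all genes.

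**Figure D4:**
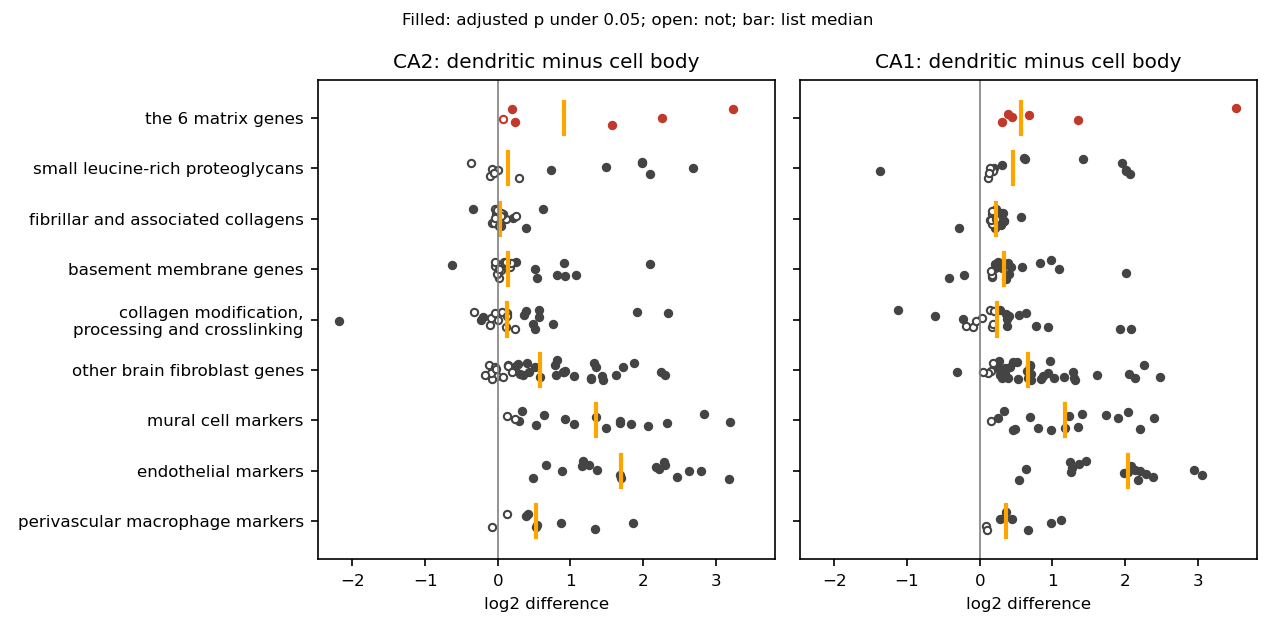
Log2 differences between the dendritic and cell body layers (horizontal axis) in CA2 and in CA1 for the 6 matrix genes and for the genes of 8 related lists. Each point is a gene, filled where the limma adjusted p was under 0.05, and the bar is the list median. The other collagens gather near 0 in CA2 and near 0.22 in CA1, while the endothelial and mural lists have medians above 1 in both.

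Receptors and partners of the matrix proteins were measured too. Of 8 genes of the vitamin K cycle and other Gla proteins, the class of Mgp, 4 rose and 2 fell in CA2 and 3 rose and 1 fell in CA1. The medians were 0.22 in CA2 and 0.17 in CA1, against -0.03 and 0.12 over all genes. The rises in CA2 made up a larger share than the 16.2% of all genes. The other counts of this short list lay nearer to the shares of all genes. Pros1 (protein S) rose by 2.06 in CA2 and 1.70 in CA1, Prrg1, a membrane Gla protein, by 0.65 and 0.66, and Gas6, a ligand of receptor kinases, by 0.30 and 0.29. Vkorc1, which recycles vitamin K, rose by 0.41 in CA2, and the related enzyme Vkorc1l1 fell by 0.50 in CA2 and 0.66 in CA1. Prrg3, another membrane Gla protein, fell by 0.33 in CA2. Among 15 genes of bone morphogenetic protein and TGF-beta signalling, whose ligands Mgp and Dcn can bind, 10 rose and 1 fell in CA2 and 12 rose in CA1. The receptors Bmpr1b (2.12 in CA2 and 1.97 in CA1) and Tgfbr1 (1.93 and 1.91) led. The ligand Tgfb2 fell by 0.98 in CA2, rose by 0.56 in CA1, and had an interaction of -1.54 (adjusted p = 0.0019), which did not pass without the oocyte arrays (-1.37, adjusted p = 0.099). Of 9 measured collagen receptors 3 rose in CA2 and 6 in CA1, with 0 falls, among them Ddr2 (1.07 and 1.05), Lair1 of immune cells (1.67 and 2.00) and the integrin chain Itgb1 (1.11 and 0.99). Of 13 matrix proteases and their inhibitors, 6 rose and 2 fell in CA2 and 8 rose and 1 fell in CA1. The inhibitors Timp3 (1.85 and 1.67) and Timp4 (1.90 and 1.60) rose in both, and Mmp14 fell by 0.62 in CA2 and rose by 1.36 in CA1 (interaction -1.98, adjusted p = 8.4e-06, and -2.09 with 0.0058 without the oocyte arrays). Mmp16 fell by 0.62 in CA2 and 0.48 in CA1. Without the oocyte arrays fewer genes of the vitamin K, signalling and protease lists passed in CA2, as did fewer of all genes.

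Markers of several cell types moved with the 6 genes. Of 37 measured genes of other brain fibroblast products, 26 rose and 0 fell in the CA2 dendritic layer and 32 rose and 1 fell in the CA1 dendritic layer, with medians of 0.58 and 0.66. Fibronectin (Fn1) rose by 2.25 in CA2 and 2.26 in CA1, Apod by 2.30 and 2.48, and the transporters Slc6a20a by 1.88 and 1.62 and Slc6a13 by 1.73 and 1.02. The interaction passed for Slc6a13 (0.71, adjusted p = 0.032), the transcription factor Zic1 (0.47, adjusted p = 0.043) and Vcan (-1.56, adjusted p = 4.6e-05), a proteoglycan that oligodendrocyte precursors make too. Without the oocyte arrays Slc6a13 (1.08, adjusted p = 0.031) and Vcan (-1.43, adjusted p = 0.016) still passed, and Zic1 did not (0.33, adjusted p = 0.28). Igfbp6, which binds insulin-like growth factors, fell by 0.31 in CA1. Without the oocyte arrays fewer of the 37 rose in CA2, as did fewer of all genes, and 32 rose in CA1.

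All 17 measured endothelial markers rose in both regions, with medians of 1.70 in CA2 and 2.05 in CA1. Fewer rose in CA2 without the oocyte arrays, as among all genes. Of 17 mural markers, 15 rose in CA2 and 16 in CA1, with medians of 1.35 and 1.17. Smooth muscle actin (Acta2) rose by 3.20 in CA2 and 1.90 in CA1, an interaction of 1.30 (adjusted p = 0.010) that did not pass without the oocyte arrays (1.05, adjusted p = 0.16). Without those arrays fewer mural markers rose in CA2 as well. Of 9 perivascular macrophage markers 7 rose in each region, led by Mrc1 (1.86 in CA2 and 1.12 in CA1), and fewer rose in CA2 without the oocyte arrays. All 12 astrocyte, 10 microglia and 7 measured oligodendrocyte markers rose in both. Of 11 interneuron markers 7 rose in each region, while 1 fell in CA2 and 2 fell in CA1. Of 9 pyramidal neuron markers 9 fell in CA2 and 6 in CA1. In the CA2 dendritic arrays the mean of the other fibroblast list lay between 7.20 and 7.37, against 6.49 to 6.59 in the CA2 cell body arrays. In the CA1 dendritic arrays it lay between 7.02 and 7.16, against 6.30 to 6.37 in the CA1 cell body arrays. The part of these cell types in the differences of the 6 genes was not tested.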

How the data were processed

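Expression was measured on 12 arrays. The deposited values are log2 per feature, made with RMA (robust multi-array average) by the authors, per the submitters' processing notes. Neither the software nor whether both runs were normalized together is stated in the sources used here. Array medians lay between 5.68 and 5.88. Each array received amplified RNA from 5 to 7 ng, per the labels' protocols. Precision is limited by 3 arrays per group.

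Of 72688 features, 30604 had 1 distinct symbol (a repeated symbol counts once). Symbols were updated for features that matched RefSeq (22818), and the brightest feature per symbol gave 30142 genes. One limma 3.58.1 model (R 4.3.3) held all 12 arrays, with a mean for each of the 4 groups and replicate number as a block, because the 3 mice gave every layer. Tests were two-sided with Benjamini-Hochberg adjustment over all genes, and the model was tested on simulated data. That the number marks the mouse is not spelled out in the labels. Of 18 same-numbered pairs, 1 correlated above 0.1 in its deviations (range -0.346 to 0.132). Among pairs of different groups and different numbers the highest value was 0.251. These deviations thus do not show that the number marks the mouse.

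The members and lists were chosen with earlier results of these data known. All 6 genes were named throughout. Names from the lists were drawn, not always in full, from the up to 4 called genes with the largest rise and up to 4 with the largest fall per comparison. For each of the 6, the 3 genes with the highest Pearson's r were named, leaving out predicted genes, small RNAs and chemosensory receptors. Alternatives changed the normalization, the filter on dim genes, the features tested, the block, the weights, the variance prior and the arrays used.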

Additional observations from a re-analysis of the deposited data

Results flagged for a closer look

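Lum was the 1 gene of the 6 whose layer difference differed between regions by the test of the difference itself. The CA2 layer difference exceeded the CA1 layer difference by 0.88 (SE 0.20, limma adjusted p = 0.021; 0.013 to 0.197 over the alternatives). The larger difference was seen in the dendritic layers, at 6.17 ± 0.27 in CA2 and 5.24 ± 0.44 in CA1 (SD, n = 3 arrays), while the cell body layers read 4.60 ± 0.25 and 4.56 ± 0.11. These cell body values lay near the mean of the background features, 4.59 in CA2 and 4.47 in CA1, whose single values ran from 2.21 to 7.97. The difference between dendritic layers, 0.92, cannot be told apart from a difference between runs.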

How the results depend on the processing

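Dcn, Mgp and Lum passed in both layer comparisons under every alternative that tested them, with differences of 1.96 to 2.75, 2.75 to 3.61 and 1.44 to 1.77 in CA2 and 1.16 to 1.55, 3.33 to 3.82 and 0.55 to 0.87 in CA1. The number of the 6 genes that passed was less stable. In the CA2 layers it was 5, and 3 without the oocyte arrays or without the arrays high in choroid plexus markers (chosen after seeing the data), and 3 to 5 when replicates or single arrays were left out. For the interaction it was 1, and 0 without the replicate block, among genes above the median level of features (where Lum was not tested), and without either set of arrays that stood apart, and 0 to 2 with replicates left out. Between dendritic layers it was 2, and 1 with that filter, with every feature tested, with only the groups compared, with array weights and without the choroid plexus arrays, and 1 to 3 with replicates left out. Between cell body layers it was 1, and 0 without the replicate block, with every feature tested and without the choroid plexus arrays, and 0 to 1 with replicates left out. The cause of these changes was not tested. The fit without the oocyte arrays held only 1 CA2 dendritic array. No interaction could be had from only the groups compared. The sign turned for the uncalled Mgp interaction (-0.83 to 0.25 with replicates left out) and the uncalled Lum difference between cell body layers (-0.085 to 0.15 with replicates left out, -0.0739 without the choroid plexus arrays). Without the oocyte arrays the calls over all genes numbered 5707 against 10251 in the CA2 layers, 699 against 3504 for the interaction and 1918 against 9105 between dendritic layers. Between dendritic layers they also numbered 3109 with only the groups compared, 5579 with array weights and 4358 without the choroid plexus arrays, and between cell body layers 4102 without those arrays, against 6367. Leaving out a replicate number gave as few as 697 calls for the interaction, 3663 between dendritic layers and 3451 between cell body layers, and the interaction had 1021 without the choroid plexus arrays. Testing all 72688 features gave 15383 calls in the CA2 layers, 22235 in the CA1 layers against 14122, and 11487 between cell body layers. Scaling moved the share of calls that were higher: between dendritic layers it was 38.3%, 56.4% after quantile normalization and 70.3% after centring, between cell body layers 50.3%, 70.4% and 74.3%, and for the interaction 41.4%, 30.2% and 42.1%.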
